A study of Mus musculus with 30 samples.

Results

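The Erysipelotrichaceae are a family of Firmicutes, and 255 of the 12980 16S rRNA sequence variants counted in the feces of 30 mice, or 1.96%, carried that family name. The members were chosen by their taxonomy and their summed counts: every row of the filtered count table that the deposited taxonomy places in this family and that held 1 count or more in the 30 mice, whatever their group. Of 507 rows of the family, 252 held 0 counts in these mice and were left out, and 5 of the 255 kept rows held 1 count in all. A further 193 sequence variants of the family had counts only in the unfiltered table, each with 1 count. Such a variant is abbreviated as ASV (amplicon sequence variant). The family is described here through its total share of all counts, its genera and its ASVs.

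The mice were female, labelled as 6-week and of strain C57BL/6 by the labels and C57BL/6J by the methods, in 5 groups of 6. The control group received a normal diet and saline by gavage. The model group received a high-fructose (HFru) diet with 60% fructose and saline by gavage. The other 3 groups received the same HFru diet and a gavage of a phenylethanoid. The dose was 50 mg/kg in the salidroside group, 23 mg/kg in the tyrosol group and 26 mg/kg in the hydroxytyrosol group. The methods set the tyrosol and hydroxytyrosol doses by molar conversion from the salidroside dose. Salidroside is the glucoside of tyrosol, and hydroxytyrosol carries an additional hydroxyl group on the ring of tyrosol. Sources differ on the feeding time, which is 8 weeks by the methods, 12 weeks by the legends and 84 days by the discussion. The labels give neither cages nor sequencing batches, so cage and group cannot be told apart. Mice are numbered as in the sample titles.

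Erysipelotrichaceae are anaerobes or facultative anaerobes of the gut lumen and mucosa, and many ferment simple sugars. The family holds genera that were named as Clostridium or Eubacterium before ribosomal sequences placed them elsewhere, which is why these names occur here within Erysipelotrichaceae. It is known for large shifts of its share with the fat and sugar of the diet.

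The 30 libraries held from 41862 to 106609 counts. The family took 69950 counts in all, or 2.68%. A count of 0 in a mouse allows up to 3 counts, which is a share of 0.00281% to 0.00717% depending on the library. Intervals and limits of this kind cover counting error within 1 library only, and the reads carry no molecular identifiers. Shares are relative, so a rise of the family and a fall of other bacteria cannot be told apart. A large and uneven part of the counts fell to 10 listed genera of obligate aerobes, among them Acinetobacter and Sporosarcina. Their summed share had a median of 15.2% in the control group (1.61% to 56.0%), 63.3% in the model group (42.6% to 86.0%), 36.8% in the salidroside group (10.3% to 73.2%), 62.3% in the tyrosol group (1.22% to 77.0%) and 12% in the hydroxytyrosol group (2.25% to 61.2%). The part of this shift in the results on the family was not tested, and values over the remaining counts are given beside the main ones.

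The members fell into 8 units, which are the named genera and 1 unit of ASVs without a genus name. Clostridium held 105 ASVs and 36366 counts, 52.0% of the family. Nearly all of it was Clostridium ramosum, a spore-forming sugar fermenter also placed in Erysipelatoclostridium, with 99 ASVs and 36283 counts. Allobaculum, a common anaerobe of the mouse gut, held 56 ASVs and 20795 counts (29.7%), none of them named to species. [Eubacterium], written in brackets because the genus name is disputed for these species, held 13 ASVs and 9374 counts (13.4%), of which 9370 were [Eubacterium] dolichum. Hydroxytyrosol mouse 3 alone held 6709 of the 9374 counts. Coprobacillus held 5 ASVs and 1552 counts (2.22%), and Holdemania held 14 ASVs and 649 counts (0.928%). 60 ASVs with 1172 counts (1.68%) had no genus name and were summed as 1 unit. cc_115 and Erysipelothrix were each a single ASV, with 25 and 17 counts.

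Counts were concentrated in few ASVs. Of the 255 members, 167 held under 10 counts in all and 162 were seen in 1 mouse, whereas 6 held 1000 or more. The 12 ASVs of the highest mean share over the 30 mice held 92.6% of the family's counts. They comprised 2 of C. ramosum (ASV_80110 and ASV_30556), 1 of [Eubacterium] dolichum (ASV_90254), 6 of Allobaculum (ASV_13600, ASV_84156, ASV_37476, ASV_78149, ASV_24614 and ASV_62868), 2 of Coprobacillus (ASV_90199 and ASV_23555) and 1 of Holdemania (ASV_1395).

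The share of the family ran over more than 3 orders of magnitude between mice. In the control group the lowest, median and highest shares were 0.0109%, 0.839% and 3.77%. These mice fell apart into mice 1, 2 and 6, with 8, 26 and 25 counts of the family, and mice 3, 4 and 5, with 1378, 823 and 2794 counts. In the model group the shares were 0.0502%, 0.236% and 0.630%, so that the whole group lay within the gap left by the control mice. In the salidroside group they were 0.0705%, 1.69% and 10.5%, in the tyrosol group 0.996%, 2.05% and 3.45%, and in the hydroxytyrosol group 0.702%, 2.84% and 19.7%. Every tyrosol and hydroxytyrosol mouse lay above every model mouse, and salidroside mice 2 and 3 lay within the range of the model group. Over counts without the listed aerobes these groups overlapped, with 0.220% to 3.06% in the model group (highest in mouse 3), 1.01% to 10.2% in the tyrosol group and 1.26% to 20.5% in the hydroxytyrosol group. Counting error was wide at the lowest counts. Control mouse 1, with 8 counts of 73213, had a 95% Wilson interval of 0.00554% to 0.0216%, and control mouse 2 one of 0.0246% to 0.0528%. These intervals were narrow beside the range over all mice.

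**Figure D1:**
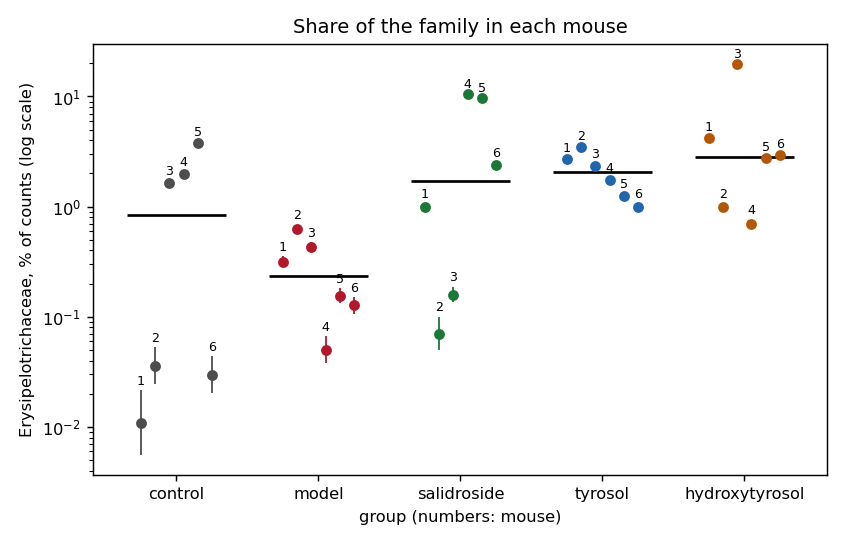
Share of Erysipelotrichaceae in percent of all counts (log scale) for each of the 30 mice by group, with 95% Wilson intervals as thin bars, the group median as a thick bar and the mouse number above each point. The model mice sit between 0.0502% and 0.630%, below all tyrosol mice (lowest 0.996%) and all hydroxytyrosol mice (lowest 0.702%), while control mice 1, 2 and 6 sit at or below 0.0360%. Over counts without the listed aerobes, which are not plotted, the tyrosol and hydroxytyrosol groups overlapped with the model group.

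The comparison of the model group with the control group asks what the HFru diet did to the family. Its mean share was 0.285% ± 0.218 (SD, n = 6) in the model group and 1.24% ± 1.52 (SD, n = 6) in the control group. The difference did not pass the test: the log2 fold change of the family was −0.55 (SE 1.24, 95% interval −2.98 to 1.88), with an adjusted p of 0.750 in edgeR's quasi-likelihood test, and model mice were higher in 18 of 36 pairs. Of 53 families tested, 26.4% passed an adjusted p of 0.05 in this comparison. Over counts without the listed aerobes the log2 fold change was −0.64, with an adjusted p of 0.705 in edgeR.

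Within the family, 1 tested genus was called higher and 1 unit lower in the model group than in the control group. Clostridium had a share of 0% to 0.0378% in the control group (median 0.00494%) and of 0.00307% to 0.487% in the model group (median 0.129%). The groups overlapped, with model mice higher in 29 of 36 pairs. The log2 fold change of the genus was 4.87 (SE 1.82, 95% interval 1.19 to 8.55; adjusted p = 0.0387, edgeR). Of the mice with 10 or more counts of it, 4 were model mice and 1 was a control mouse, so the model mice alone carried it past the count filter and the call is a description. The ASVs without a genus name went the other way, with 0% to 0.538% in the control group (median 0.178%) and 0% to 0.0188% in the model group (median 0.00208%). Their log2 fold change was −4.68 (SE 1.88, adjusted p = 0.0499, edgeR). They reached 10 counts in 3 control mice and 1 model mouse, just enough for the test, so that this call is a description as well. Allobaculum had a log2 fold change of −2.71 (95% interval −5.81 to 0.38) and did not pass (adjusted p = 0.164, edgeR). With a mouse left out its log2 fold change ranged from −3.03 to −0.82. The other 5 units had too few counts to be tested in these 12 mice. Thus 1 of 3 tested genera was called higher and 1 lower, where 20.7% of the 87 genera tested over the whole table were called higher and 12.6% lower in this comparison.

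Both genus calls were close to the threshold and were lost under 6 of 11 processing alternatives for Clostridium (log2 fold changes of 3.57 to 4.50, and a permutation test of mean shares) and 5 of 10 for the ASVs without a genus name (−4.98 to −3.61, and the same permutation test). They also depended on single mice. The call of Clostridium was kept without model mouse 4 or 6 (adjusted p = 0.0495 and 0.0319 in edgeR) and lost without any of the other 10 mice, with log2 fold changes of 3.92 to 5.11 and adjusted p from 0.0534 without model mouse 5 to 0.102 without control mouse 4. The unit without a genus name was tested in 8 of the 12 sets with a mouse left out. Its call was kept without control mouse 6 (adjusted p = 0.0197) and lost without control mouse 1 or 2 or model mouse 1, 2, 4, 5 or 6, where adjusted p ran from 0.0595 to 0.114 in edgeR.

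Holdemania had 0 counts in all control mice and was found in 3 of 6 model mice, at up to 0.0839%. Its mean share in the model group was at least 3.78-fold higher than the limit that 0 counts allows in each control library. This bound rests on model mouse 3, since the next mouse held 0.0119% and without mouse 3 the mean did not exceed the limit. Conversely, cc_115 was found in 3 control mice and Erysipelothrix, a genus known for an animal pathogen, in control mouse 6 alone, and neither was found in the 24 mice on the HFru diet. Clostridium cocleatum, a species known for degrading mucin, had 33 counts, all in 3 control mice. The genus Clostridium thus consisted of 33 C. cocleatum and 9 C. ramosum counts in the control group, and the HFru groups held 36274 C. ramosum counts and 0 of C. cocleatum.

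The genus that led the family differed from mouse to mouse. Allobaculum led in 3 control mice, in 1 of them (mouse 1, 8 counts) level with the ASVs without a genus name, and Coprobacillus, Erysipelothrix and cc_115 led in 1 control mouse each. Among model mice, Clostridium led in mice 1, 2 and 3 with 56.2% to 93.5% of the family, and Allobaculum in mice 4, 5 and 6 with 73.5% to 90.6%. Clostridium led in 4 salidroside, 5 tyrosol and 4 hydroxytyrosol mice, and Allobaculum in the remaining 2, 1 and 2 mice.

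**Figure D2:**
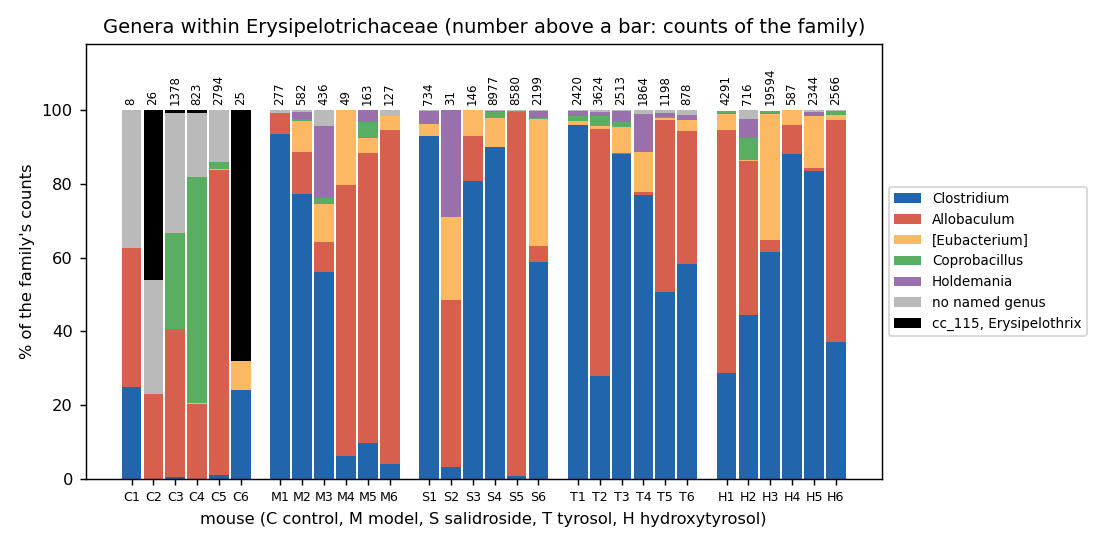
Composition of the family in each mouse: stacked bars give each genus in percent of the family's counts, and the number above a bar is the family's count in that mouse (control mice 1, 2 and 6 have 8, 26 and 25 counts). Blue (Clostridium) and red (Allobaculum) fill most of the bars on the HFru diet, green (Coprobacillus) and grey (no named genus) appear mainly in control mice, and black (cc_115 and Erysipelothrix) appears in control mice only.

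Few ASVs of the family were seen on both the normal and the HFru diet. Of the 255 members, 66 were seen only in control mice, 182 only in the 24 mice on the HFru diet and 7 in both, which is 2.75% of the members. Over all 12980 ASVs the share seen in both was 10%, and over the Firmicutes it was 6.55%. Among other listed gut families it ran from 0% for Bifidobacteriaceae to 13.2% for Porphyromonadaceae, with 3.4% for Lachnospiraceae. Since an ASV of 1 count can be seen in 1 mouse only, the counts were compared as well. ASVs seen in both diets held 5.36% of the control group's 5054 counts of the family. This value rests on control mouse 5, which held 2794 of these counts, and was 1.28% without that mouse and 2.67% without model mouse 2. The same value was 81.7% over all ASVs and 82.2% over the Firmicutes, the phylum of the family. Low values were not particular to Erysipelotrichaceae: among other listed gut families it was 1.01% for Clostridiaceae, 22.0% for Porphyromonadaceae, 31.5% for Lachnospiraceae and 38.1% for Ruminococcaceae, and 0% for the 59 control counts of Bifidobacteriaceae. Among the 88 members with at least 10 counts, 6 were seen in both diets (6.82%). The same share was 30.1% of the 3472 ASVs of that size over the whole table and 18.7% of the 1580 in the Firmicutes. No test was made of these shares.

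Control and HFru mice also held different ASVs within genera that were found on both diets. Allobaculum had 33 ASVs in control mice alone, 19 in HFru mice alone and 4 in both. The 4 were 7.14% of its ASVs, near the 6.55% over the Firmicutes and the 10% over all ASVs. They held 8.24% of its control counts and 0.344% of its HFru counts. Without control mouse 5 the share of its control counts was 1.65%, and without model mouse 2 it was 3.78%. The share of its HFru counts was 0.152% without control mouse 4 and 0.22% without control mouse 5. ASV_24614 was found in control mice 2, 3, 4 and 5, with 0.00831%, 0.199%, 0.115% and 0.498%, and had 0 counts in all 24 HFru mice. ASV_62868 was found in control mice 3, 4 and 5, with 0.0620%, 0.0573% and 0.480%, and likewise in no HFru mouse. ASV_13600, with 0 counts in all control mice, was found in 21 of 24 HFru mice.

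Coprobacillus had 2 ASVs in control mice alone, 3 in HFru mice alone and 0 in both, with 1 ASV leading on each side. ASV_90199 had 357, 504 and 49 counts in control mice 3, 4 and 5 and 0 elsewhere, and ASV_23555 was found in 14 HFru mice and in no control mouse. The share of the first in control mice was on average at least 91.4-fold above the limit set by 0 counts in the model group, and at least 31.8-fold without control mouse 4. Among ASVs without a genus name, 27 were found in control mice, 33 in HFru mice and 0 in both. The share of ASVs seen in both was 6.55% over the Firmicutes and 10% over all ASVs. [Eubacterium] had 0 ASVs in control mice alone, 12 in HFru mice alone and 1 in both (7.69%). That 1, ASV_72206, held all 11 control counts of the genus, in 4 mice, and 17 of its 9363 HFru counts, in 3 mice. Of the 7 shared ASVs, ASV_80110 of C. ramosum was the most abundant by far, with 7 counts in 2 control mice and 32844 counts in 22 HFru mice. Through it, shared ASVs held 50.7% of the family's counts on the HFru diet, which was nearer to the 62.4% over the Firmicutes and the 77.8% over all ASVs than the value for the control group was.

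**Figure D3:**
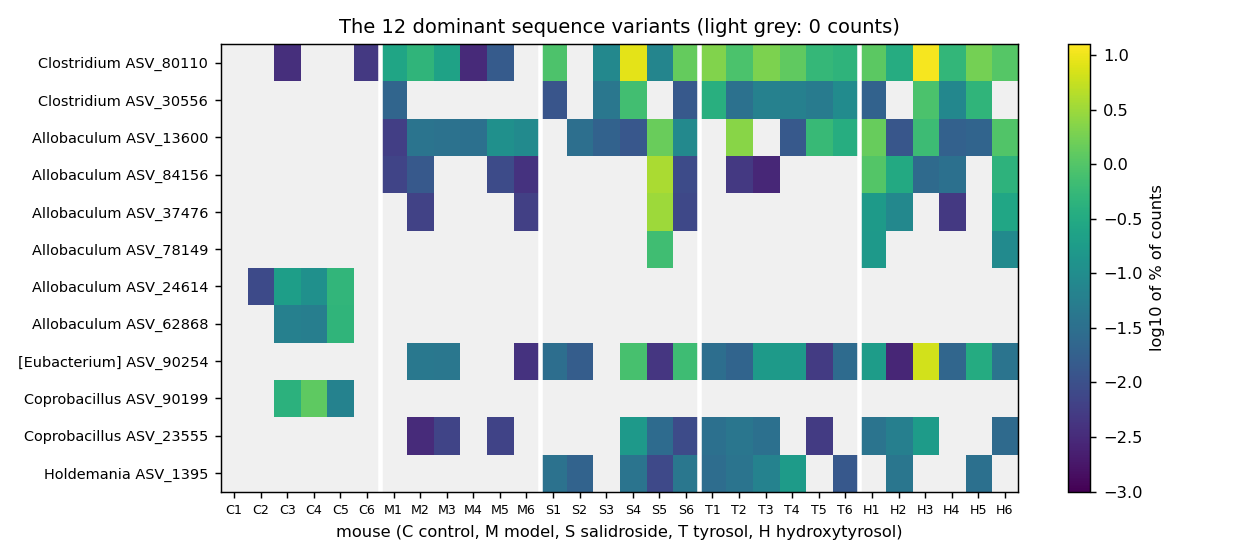
Share of the 12 dominant ASVs in each mouse as log10 of the percentage of all counts, with light grey for 0 counts, rows ordered by genus and white lines between the groups. The rows ASV_24614, ASV_62868 and ASV_90199 are filled only in control mice, and the other 9 rows only in HFru mice except ASV_80110, which had counts in 2 control mice.

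2 of the 255 members had enough counts to be tested as single ASVs in the model and control groups, and both were called higher in the model group, where 7.06% of 411 ASVs were called higher over the whole table. The filter asked for 10 or more counts in 4 or more of the 12 mice, so the 2 that entered were already high in the model group, and their values are a description. ASV_80110 had 0% to 0.00478% in the control group (median 0%) and 0% to 0.477% in the model group (median 0.122%), and model mice were higher in 28 of 36 pairs. Its log2 fold change was 7.23 (SE 2.71; adjusted p = 0.0271, edgeR). It passed the filter in 8 of the 12 sets with a mouse left out, and the call was lost without control mouse 1, 2, 3, 4 or 5, with log2 fold changes of 6.56 to 7.19 and adjusted p of 0.0547 to 0.109 in edgeR. ASV_13600 was found in every model mouse, at 0.00570% to 0.114% (median 0.0362%), and in no control mouse. It was at least 11.9-fold higher in the model group (adjusted p = 0.00575, edgeR), and at least 9.17-fold without the highest mouse. Shares that lay wholly above those of the control group were seen in 2.68% of the 411 ASVs.

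The comparisons of the treated groups with the model group ask what salidroside, tyrosol and hydroxytyrosol did on the HFru diet. These comparisons share the 6 model mice and are not independent of each other. The family's mean share was 3.96% ± 4.81 in the salidroside group, 2.08% ± 0.927 in the tyrosol group and 5.22% ± 7.21 in the hydroxytyrosol group (SD, n = 6 each), against 0.285% ± 0.218 in the model group. All 3 were called higher than the model group in edgeR, with unequal stability. Of 13 processing alternatives, 7 ended the call for salidroside, 8 for tyrosol and 1 for hydroxytyrosol. For tyrosol these were no TMM, no filter, a minimum of 50 counts, no listed aerobes, the unfiltered and the rarefied table, all 30 mice in one model and edgeR without robust fitting. For salidroside they were centred log-ratios, no filter, a minimum of 50 counts, a replicate block, the rarefied table and the permutation tests with and without the listed aerobes, and for hydroxytyrosol the replicate block. The calls had adjusted p of 0.0305, 0.0472 and 0.0227 in that order.

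In the hydroxytyrosol group the log2 fold change was 3.44 (SE 0.94, 95% interval 1.49 to 5.39), with hydroxytyrosol mice higher in 36 of 36 pairs. A two-sided exact permutation test of the mean shares gave p = 0.0022, the smallest p that 924 regroupings can give. Of 54 families tested, 5.56% were called higher and 5.56% lay wholly above the model group. The call was lost without model mouse 5 (log2 fold change 3.26, adjusted p = 0.0585 in edgeR) or hydroxytyrosol mouse 3 (2.71, adjusted p = 0.0525), and was kept without any of the other 10 mice. Mouse 3 held the highest share of all, 19.7%, and the next hydroxytyrosol mouse held 4.23%. Over counts without the listed aerobes the log2 fold change was 3.72 (adjusted p = 0.0239, edgeR), hydroxytyrosol mice were higher in 32 of 36 pairs and the exact permutation p was 0.015.

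In the tyrosol group the log2 fold change was 2.78 (SE 0.86, 95% interval 1.04 to 4.53), again with 36 of 36 pairs higher and an exact permutation p of 0.0022. Of 54 families, 3.7% were called higher and 5.56% lay wholly above the model group. The tyrosol mice ran from 0.996% to 3.45%. The edgeR call was nevertheless lost without any 1 of 10 mice, with log2 fold changes of 2.11 without model mouse 4 to 2.88 without model mouse 2 and adjusted p of 0.0515 to 0.129, and was kept only without model mouse 3 (adjusted p = 0.0410) or tyrosol mouse 4 (adjusted p = 0.0453). Over counts without the listed aerobes it was 2.45 (adjusted p = 0.0685, edgeR), tyrosol mice were higher in 34 of 36 pairs and the exact permutation p was 0.011.

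In the salidroside group the log2 fold change was 3.44 (SE 1.20, 95% interval 1.08 to 5.79), and salidroside mice were higher in 28 of 36 pairs. The exact permutation test of the mean shares gave p = 0.054. Of 48 families tested, 4.17% were called higher. The mean rested on salidroside mice 4 and 5, with 10.5% and 9.68%, while the other 4 mice held between 0.0705% and 2.40%. The edgeR call was kept without salidroside mouse 1, 4 or 6 (adjusted p of 0.0341 to 0.0350) and lost without any of the other 9 mice, with log2 fold changes of 2.65 to 3.89 and adjusted p from 0.0583 without model mouse 1 to 0.218 without model mouse 4. Over counts without the listed aerobes it was 3.50 (adjusted p = 0.0420, edgeR), salidroside mice were higher in 24 of 36 pairs and the exact permutation p was 0.089.

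No genus of the family passed the adjusted threshold against the model group in any treated group. The shares of all genera called were 3.45% of 87 for salidroside, 2.17% of 92 for tyrosol and 4.4% of 91 for hydroxytyrosol. At an unadjusted p under 0.05 in edgeR there were 3 genera for salidroside, 1 for tyrosol and 3 for hydroxytyrosol. All had positive log2 fold changes. DESeq2 called Clostridium (log2 fold change 3.76) and Allobaculum (3.86) in the hydroxytyrosol group and none of the tested genera of the family in the other groups. Centred log-ratios called Clostridium (4.42; adjusted p = 0.0464, limma) and edgeR with no filter called [Eubacterium] (5.07; adjusted p = 0.0335), both in the hydroxytyrosol group.

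Clostridium had a median share of 0.129% in the model group, 0.521% in the salidroside group (0.00227% to 9.42%), 1.15% in the tyrosol group (0.579% to 2.57%) and 1.15% in the hydroxytyrosol group (0.441% to 12.1%). All tyrosol mice lay above the highest model mouse at 0.487%, as did 4.35% of the 92 genera tested, and hydroxytyrosol mice were higher in 35 of 36 pairs. The log2 fold changes were 3.58 (95% interval 0.36 to 6.80; adjusted p = 0.295), 2.49 (0.16 to 4.82; adjusted p = 0.172) and 3.02 (0.12 to 5.92; adjusted p = 0.248) for salidroside, tyrosol and hydroxytyrosol in edgeR. The exact permutation test of the mean shares gave unadjusted p of 0.15, 0.0022 and 0.0043. With a mouse left out the log2 fold changes ranged from 1.95 to 4.05, 1.96 to 3.23 and 2.06 to 3.86 in that order.

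Allobaculum was led by 1 mouse in the salidroside and tyrosol groups and spread over more mice in the hydroxytyrosol group. Its share was 0.0182% to 0.123% in the model group (median 0.0547%), 0% to 9.55% in the salidroside group (median 0.0257%), 0% to 2.32% in the tyrosol group (median 0.188%) and 0.0213% to 2.80% in the hydroxytyrosol group (median 0.544%). Salidroside mouse 5 held 9.55% and the next salidroside mouse 0.105%, and the median of that group was below that of the model group. Tyrosol mouse 2 held 2.32% and the next tyrosol mouse 0.579%. In the hydroxytyrosol group 4 of 6 mice, with 0.418% to 2.80%, lay above the highest model mouse, and hydroxytyrosol mice were higher in 28 of 36 pairs (exact permutation test of the mean shares, unadjusted p = 0.045). Without salidroside mouse 5 the log2 fold change of that group over the model group was −1.32. The log2 fold changes with all mice were 4.16, 1.99 and 3.73 for salidroside, tyrosol and hydroxytyrosol (adjusted p of 0.295, 0.463 and 0.122 in edgeR). With centred log-ratios the values for salidroside and tyrosol were of the opposite sign, −0.50 and −0.74.

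[Eubacterium], here almost only E. dolichum, had a median share of 0.00847% in the model group, 0.0247% in the salidroside group, 0.0286% in the tyrosol group and 0.110% in the hydroxytyrosol group. Its highest shares were 0.0530%, 0.827%, 0.193% and 6.75% in that order, and the last was again hydroxytyrosol mouse 3. The log2 fold changes were 3.49, 1.33 and 4.48, with adjusted p of 0.295, 0.622 and 0.197 in edgeR. Without hydroxytyrosol mouse 3 the last was 1.76 (adjusted p = 0.626, edgeR). Coprobacillus could be tested against the model group in hydroxytyrosol mice alone, with 3.26 (95% interval −0.29 to 6.81; adjusted p = 0.281, edgeR). Holdemania had log2 fold changes of 0.10, 0.82 and −1.41, and none passed (adjusted p of 0.974, 0.756 and 0.730 in edgeR).

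**Figure D4:**
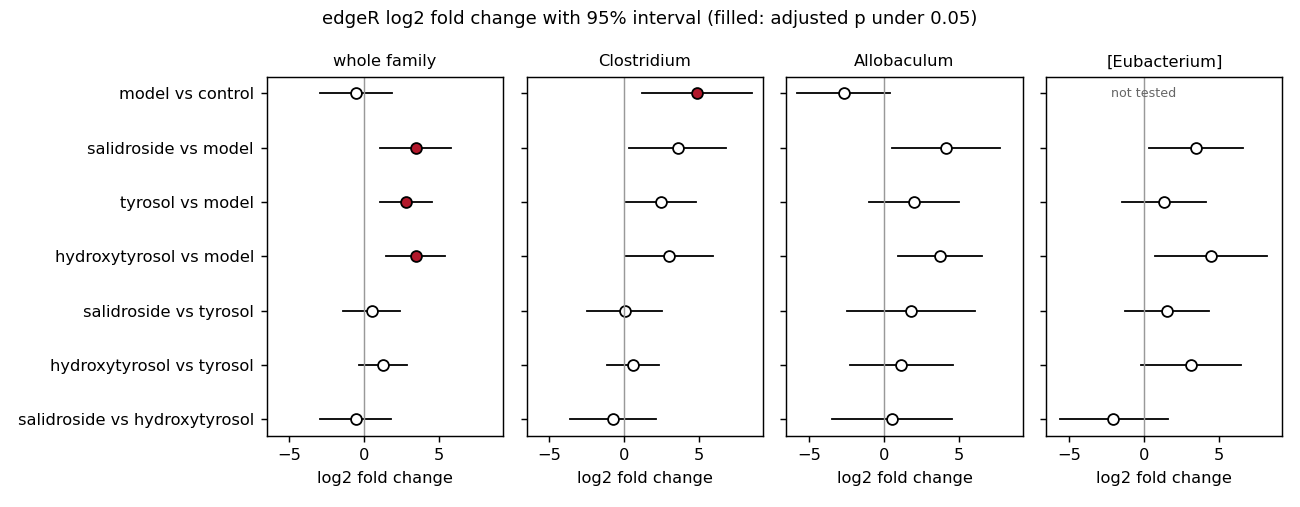
edgeR log2 fold changes (first group over second) with 95% intervals for the family and its 3 most abundant genera in the 7 comparisons of 6 and 6 mice, filled where the adjusted p is under 0.05. The family is filled in the 3 comparisons with the model group, at 3.44, 2.78 and 3.44, and the genera are filled once, for Clostridium in model vs control at 4.87.

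C. ramosum was carried by 1 ASV in nearly every mouse. In the 19 mice with at least 100 counts of the species, ASV_80110 held 63.6% to 98.0% of them (median 92.2%). ASV_30556 held 0% to 33.1% (median 4.46%) and had 0 counts in 4 of these mice. It was found in 1 of 6 model mice, 4 salidroside mice, 6 tyrosol mice and 4 hydroxytyrosol mice. In all 6 tyrosol mice it stood between 0.0333% and 0.381%, above the 0.0217% of model mouse 1, the only model mouse to hold it. Over the whole table, 4.95% of 424 ASVs lay wholly above the model group in the tyrosol group. The log2 fold changes of ASV_30556 over the model group were 4.66, 4.87 and 5.20 for salidroside, tyrosol and hydroxytyrosol, and none passed (adjusted p of 0.645, 0.227 and 0.0891 in edgeR).

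Few members could be tested singly against the model group. Of the 255, 4 were tested and 0 called for salidroside, where 4.19% of 358 ASVs were called over the whole table. None of the 4 had an unadjusted p under 0.05 in edgeR, and DESeq2 called 0 as well. For tyrosol 5 were tested and 1 was called higher, where 7.55% of 424 ASVs were called higher, and for hydroxytyrosol 6 were tested and 1 was called higher, where 8.28% of 290 ASVs were called higher. Both ASVs called passed the count filter through the treated group in which they were high, so their calls are given as a description.

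The ASV called for tyrosol was ASV_1395 of Holdemania, an anaerobe described from human feces. It had 0 counts in all model mice and was found in 5 of 6 tyrosol mice, with a median of 0.0334% and a highest share of 0.176% in mouse 4. Its mean share in tyrosol mice was at least 17.3-fold higher than the limit in the model group (adjusted p = 0.0128, edgeR), and at least 9.38-fold without mouse 4. Salidroside mice held it as well, in 5 of 6 mice at up to 0.0425%, at least 7.77-fold above the limit in the model group, and hydroxytyrosol mice 2 and 5 held 0.0403% and 0.0331%. ASV_1395 was too sparse to be tested against the model group in these last 2 comparisons.

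The ASV called for hydroxytyrosol was ASV_84156 of Allobaculum. It was found in 4 model mice at up to 0.0141% (median 0.00541%), in 2 tyrosol mice with 5 and 3 counts, and in 5 hydroxytyrosol mice at 0.0261% to 0.998% (median over all 6 mice 0.173%). Hydroxytyrosol mice 1, 2 and 6 held 0.998%, 0.313% and 0.444%, mice 3 and 4 held 0.0261% and 0.0323%, and mouse 5 held 0 counts. It was higher than in the model group in 30 of 36 pairs, with a log2 fold change of 6.16 (SE 2.42; adjusted p = 0.0444, edgeR). This call was lost without any 1 of the 6 model mice or without hydroxytyrosol mouse 1, with log2 fold changes of 5.23 to 6.44 and adjusted p of 0.0501 to 0.146 in edgeR. It was also lost under 4 of 9 processing alternatives, among them the one without the listed aerobes.

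Each treated group shared 13 ASVs of the family with the model group, and these held nearly all of its counts. The 13 were 16.7% of the 78 ASVs seen in salidroside mice, 18.8% of the 69 in tyrosol mice, 14.9% of the 87 in hydroxytyrosol mice and 32.5% of the 40 in model mice. These shares of ASVs were not computed over the whole table, so whether they are low is not known. ASVs also seen in the model group held 92.4%, 94.7% and 97.2% of the family counts of the salidroside, tyrosol and hydroxytyrosol groups. Over all ASVs of the table the same shares were 84.8%, 94.3% and 88.1%.

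The 3 compounds were compared with each other at doses matched by the molar conversion, in 3 pairs. For the family, salidroside and tyrosol, which differ by the glucose unit, gave a log2 fold change of 0.51 (95% interval −1.41 to 2.43; adjusted p = 0.763 over all families and 0.633 over the 3 pairs, edgeR). Hydroxytyrosol and tyrosol, which differ by a hydroxyl group, gave 1.27 (−0.34 to 2.88; adjusted p = 0.319 and 0.345, edgeR). Salidroside and hydroxytyrosol gave −0.55 (−2.93 to 1.82; adjusted p = 0.792 and 0.633, edgeR). No difference passed, and the intervals reach as far as 2.43, 2.88 and −2.93. Called families were 2.27%, 0% and 0% of those tested in these pairs.

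No genus of the family passed between compounds, where 0% of all genera tested were called in each of the 3 pairs, and none had an unadjusted p under 0.05 in edgeR. The closest was [Eubacterium], higher in hydroxytyrosol than in tyrosol mice in 24 of 36 pairs, with a log2 fold change of 3.17 (95% interval −0.17 to 6.51; adjusted p = 0.308, edgeR). Without hydroxytyrosol mouse 3, which held 6.75%, it was 0.69 (adjusted p = 0.882, edgeR). For Clostridium the log2 fold changes were 0.04 (−2.45 to 2.52) between salidroside and tyrosol, 0.58 (−1.15 to 2.31) between hydroxytyrosol and tyrosol and −0.75 (−3.65 to 2.15) between salidroside and hydroxytyrosol.

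Among single ASVs, 6 members were tested between salidroside and tyrosol and 0 called, 7 between hydroxytyrosol and tyrosol and 1 called higher in hydroxytyrosol mice, and 8 between salidroside and hydroxytyrosol and 0 called. The whole table had 0% of its ASVs called between salidroside and tyrosol, 3.76% called higher in hydroxytyrosol than in tyrosol mice and 12.4% called between salidroside and hydroxytyrosol. In the pairs with 0 calls, no member had an unadjusted p under 0.05 in edgeR and DESeq2 called 0. The ASV called was ASV_84156, higher in hydroxytyrosol than in tyrosol mice in 30 of 36 pairs, with a log2 fold change of 7.86 (SE 2.19, 95% interval 3.29 to 12.44; adjusted p = 0.0102, edgeR). No tyrosol mouse held more than 5 counts of it, so it entered the test through the hydroxytyrosol mice in which it was high, and the values are a description. With a mouse left out the log2 fold change ranged from 7.34 to 9.20. ASV_37476, also of Allobaculum, had 0 counts in all tyrosol mice and was found in 4 hydroxytyrosol mice at up to 0.268%. Its mean share was at least 28.7-fold above the limit in tyrosol mice (16.8-fold without the highest mouse), and it was too sparse to be tested there. ASV_13600, likewise of Allobaculum, had a log2 fold change of 0.01 (−3.66 to 3.67) between hydroxytyrosol and tyrosol.

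In the salidroside group most Allobaculum counts came from 1 mouse. Mouse 5 held 3.79% of ASV_84156, 3.15% of ASV_37476, 1.44% of ASV_13600 and 0.694% of ASV_78149, and mouse 6 held the only other counts of ASV_84156, at 0.00872%. Salidroside mouse 4, with the highest share of the family in that group, held C. ramosum instead, with 8.42% of ASV_80110. Thus different genera headed the family in the 2 salidroside mice that held most of it.

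The family whose share ran most like that of Erysipelotrichaceae over the 30 mice was Coriobacteriaceae, a family of Actinobacteria, with a Spearman rho of 0.819 among 64 families, and 0.850 in the 24 HFru mice alone. Ruminococcaceae (0.575), Lachnospiraceae (0.567), Eubacteriaceae (0.533) and [Odoribacteraceae] (0.517) followed. All these shares have the same denominator in each mouse, and mice of a group share their treatment, so the values are a description. Of 15 listed families of mostly anaerobic gut bacteria, 12 could be tested against the model group for salidroside, 13 for tyrosol and 13 for hydroxytyrosol. Among those tested, only Coriobacteriaceae were called higher than the model group in each treated group. Their log2 fold changes were 4.77, 5.13 and 4.11 for salidroside, tyrosol and hydroxytyrosol (adjusted p of 0.00171, 0.00119 and 0.00575, edgeR).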

How the data were processed

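Feces of 30 mice in 5 groups of 6 were analysed, with groups and replicate numbers taken from the labels. According to the methods and the processing notes, reads were trimmed with cutadapt, merged with FLASH, filtered in QIIME and freed of chimeras with UCHIME. The deposited values are raw counts of each sequence in each mouse, and the authors did not normalize them. The methods describe clusters of sequences (OTUs) and the deposited read log a denoising step, and the taxonomy database is not given in the sources used here. Of the 3 deposited count tables, the filtered one was used, whose totals equal the reads left after removal of singletons in 30 of 30 mice. The unfiltered table and the table rarefied to 39768 counts were alternatives. The labels call the libraries RNA but describe DNA extraction. No column of another series was used, and 0 of 75 pairs of mice within a group had identical counts.

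Counts were summed per family, per genus and per ASV over the whole table. The 2 groups of each of 7 comparisons were fitted with edgeR 4.0.16 (R 4.3.3, TMM, robust quasi-likelihood test) over features that had 10 or more counts in 4 or more of 12 mice. P-values are Benjamini-Hochberg adjusted over all features of a level, and an adjusted p under 0.05 is a call. Standard errors are the log2 fold change over the root of the F statistic. A group at 0 counts was set to 3 counts in each library for a lower bound of the fold. Mean shares were compared by two-sided exact permutation tests, and single shares have 95% Wilson intervals. Alternatives were no TMM, DESeq2 1.42.0, centred log-ratios with 0.5 counts added and limma 3.58.1, other filters, a replicate block, no listed aerobes, the other tables, all 30 mice in one model and each mouse left out. edgeR without robust fitting and the permutation test without the listed aerobes, and the sharing of ASVs with each mouse left out, were added after the data were seen. The fits were also run on simulated counts, and the outcome is not reported here. Each sample is 1 mouse, and mice of 1 cage, which the labels do not give, may resemble each other.

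Named taxa are the family, all its genera, the 12 ASVs of highest mean share over the mice and all members called. The members, the comparison families and the aerobe list were chosen with earlier results of these data known. The pioglitazone group of the study was not analysed here. The files hold ASV names without their sequences, and no sequences are shown.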

Additional observations from a re-analysis of the deposited data

Results flagged for a closer look

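In 40 sets of 6 mice (the share of the family, its number of ASVs and the shares of 6 genera or units, in each of 5 groups), a mouse that stood apart from the others of its group by Dixon's test was found 15 times. Chance flags about 1 in 20 independent sets of normally distributed values, and that rate does not apply here, because the shares are skewed and the sets share their mice. In the hydroxytyrosol group, mouse 3 stood apart with 19.7% of the family (next mouse 4.23%), 12.1% of Clostridium (next 2.31%), 6.75% of [Eubacterium] (next 0.390%) and 0.175% of Coprobacillus (next 0.0598%). In the salidroside group, mouse 4 stood apart with 9.42% of Clostridium (next 1.41%) and 0.163% of Coprobacillus (next 0.0271%), and mouse 5 with 9.55% of Allobaculum (next 0.105%). In the tyrosol group, mouse 2 stood apart with 2.32% of Allobaculum (next 0.579%) and 0.0951% of Coprobacillus (next 0.0332%), and mouse 4 with 0.178% of Holdemania (next 0.0675%). In the model group, mouse 3 stood apart with 0.0839% of Holdemania (next 0.0119%) and 0.0188% of ASVs without a genus name (next 0.00228%). In the control group, mouse 5 stood apart with 3.13% of Allobaculum (next 0.659%) and 0.0378% of Clostridium (next 0.00717%), and mouse 4 with 1.20% of Coprobacillus (next 0.426%). All 15 were the highest mouse of the group. ASV_84156 of Allobaculum differed between treatments on the same diet, with a log2 fold change of 7.86 between hydroxytyrosol and tyrosol (adjusted p = 0.0102, edgeR). This value is a description, since no tyrosol mouse held more than 5 counts and the ASV passed the count filter through the hydroxytyrosol mice in which it was high.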

How the results depend on the processing

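Values are log2 fold changes unless stated, and the cause of each change was not tested. The calls of the family over the model group were lost under these settings. For salidroside this was so with centred log-ratios (2.71), no filter (3.43), a minimum of 50 counts (3.26), the replicate block (2.78), the rarefied table (2.93) and the exact permutation test of mean shares (3.67 percentage points, and 4.61 without the listed aerobes). For tyrosol it was so with no TMM (2.87), no filter (3.03), a minimum of 50 counts (1.83), no listed aerobes (2.45), the unfiltered table (2.31), the rarefied table (2.30), all 30 mice in one model (2.27) and edgeR without robust fitting (2.78). For hydroxytyrosol it was so with the replicate block alone (3.10). For model vs control, the call of Clostridium was lost with no TMM (4.22), centred log-ratios (3.57), no filter (4.12), the replicate block (4.50), the unfiltered table (4.12) and the permutation test (0.165 percentage points), and that of ASVs without a genus name with centred log-ratios (−4.06), no filter (−4.98), the replicate block (−3.61), no listed aerobes (−4.57) and the permutation test (−0.234 percentage points).

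Calls of genera gained over the model group were, for hydroxytyrosol, Clostridium with DESeq2 (3.76), centred log-ratios (4.42) and the permutation test (2.79 percentage points), Allobaculum with DESeq2 (3.86) and the permutation test (0.887 percentage points) and [Eubacterium] with no filter (5.07), and, for tyrosol, Clostridium with the permutation test (1.19 percentage points). P-values of the permutation test were not adjusted.

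Signs of differences that did not pass changed as follows. With centred log-ratios the family turned to −0.29 for salidroside vs tyrosol, Clostridium to −1.60 for that pair, and Allobaculum to 0.17 for model vs control, −0.50 for salidroside vs model, −0.74 for tyrosol vs model and −2.71 for salidroside vs hydroxytyrosol. For salidroside vs hydroxytyrosol the family turned to 0.036 with a minimum of 50 counts and 0.22 with the unfiltered table, and with the rarefied table Clostridium turned to 0.0025 and Coprobacillus to 0.028. For salidroside vs tyrosol Coprobacillus turned to 0.26 with no TMM, 0.22 with the rarefied table, 0.08 with all 30 mice in one model and 0.00545 percentage points in mean share. For salidroside vs model Holdemania turned to −0.17 without the listed aerobes and −0.034 with the unfiltered table.

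The replicate numbers do not pair the mice: the correlation of deviations between mice of the same number was over 0.1 in 0 to 3 of 6 pairs, with a lowest value of −0.417, and at most 2 of 6 mice correlated best with their own number. With the replicate block the family turned to 0.79 for model vs control and −0.28 for salidroside vs tyrosol. Under the same block Allobaculum turned to −0.64 for salidroside vs model, −1.0 for tyrosol vs model, −0.041 for salidroside vs tyrosol and −3.69 for salidroside vs hydroxytyrosol, Clostridium to −1.63 for salidroside vs tyrosol and Holdemania to 0.08 for hydroxytyrosol vs model.

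The number of ASVs of the family called for model vs control was 0 with no filter, a minimum of 50 counts or the replicate block and 1 with the rarefied table. For tyrosol vs model it was 2 with DESeq2 and with centred log-ratios, and 0 with no filter or a minimum of 50 counts. For hydroxytyrosol vs model it was 2 with no TMM and with the rarefied table, 5 with DESeq2, 4 with centred log-ratios, and 0 with no filter, a minimum of 50 counts, the replicate block or no listed aerobes. For hydroxytyrosol vs tyrosol it was 0 with no filter and with a minimum of 50 counts. No filter tests more ASVs, and the minimum of 50 counts tests fewer.

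When the mice were left out one at a time, the family ranged from −1.19 to −0.12 for model vs control, 2.65 to 3.89 for salidroside, 2.11 to 3.12 for tyrosol and 2.71 to 3.92 for hydroxytyrosol over the model group, 0.025 to 0.90 for salidroside vs tyrosol, 0.30 to 1.48 for hydroxytyrosol vs tyrosol and −1.07 to 0.49 for salidroside vs hydroxytyrosol. The last turned positive without salidroside mouse 1, 2, 3 or 6 or hydroxytyrosol mouse 3. The number of ASVs called ranged from 1 to 2 for model vs control, where it was 1 without control mouse 1, 2, 3, 4 or 5 or model mouse 1, 2, 3 or 5. It ranged from 1 to 2 for tyrosol vs model, where it was 2 without model mouse 1. It ranged from 0 to 3 for hydroxytyrosol vs model, where it was 3 without hydroxytyrosol mouse 2 and 0 without model mouse 2, 3, 4, 5 or 6 or hydroxytyrosol mouse 1. It was 0 in all sets for salidroside vs model, salidroside vs tyrosol and salidroside vs hydroxytyrosol and 1 in all sets for hydroxytyrosol vs tyrosol. Genera turned sign without 1 mouse from −1.32 to 4.87 (Allobaculum, salidroside vs model), −3.59 to 3.19 (Allobaculum, salidroside vs tyrosol), −5.26 to 1.62 (Allobaculum, salidroside vs hydroxytyrosol), −1.19 to 0.63 (Clostridium, salidroside vs tyrosol), −0.10 to 1.22 (Clostridium, hydroxytyrosol vs tyrosol), −1.88 to 0.35 (Clostridium, salidroside vs hydroxytyrosol), −1.76 to 0.80 (Coprobacillus, salidroside vs tyrosol), −2.98 to 0.80 ([Eubacterium], salidroside vs hydroxytyrosol) and −0.24 to 2.69 (Holdemania, salidroside vs model).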
